A study of Mus musculus with 9 samples.

Results

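The circadian clock genes examined here are Clock, Per1, Per2, Per3, Cry1, Cry2, Ciart, Dbp, Tef, and Hlf, 10 of the 50686 genes counted by RNA-Seq. They were chosen by name, as core and output genes of the molecular clock, with earlier results of these data known. The libraries came from 3 groups with n = 3 each. Control osteoblasts were cells of the mouse line MC3T3-E1 without treatment. SB216763-treated osteoblasts were the same line given 10 μM SB216763, an inhibitor of the GSK3 kinases, for 14 days. The third group was mouse pulmonary ECs, endothelial cells isolated by FACS and given no treatment. The protocol entry of the labels repeats the SB216763 treatment for all samples, so groups were taken from the titles and treatment entries. All osteoblast libraries derive from 1 cell line. The strain and age of the EC donors, the time in culture of the controls, the hour of harvest, and any synchronization of the cells are not given in the sources used here. With 1 harvest per library, a change in mean level and a change in the phase or amplitude of a daily rhythm cannot be told apart.

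The mammalian clock is a loop of transcription and repression. CLOCK and its partner BMAL1 bind E-boxes and activate the Per, Cry, Ciart, and Dbp genes, and the PER and CRY proteins enter the nucleus and repress CLOCK-BMAL1. Ciart encodes CHRONO, a further repressor of CLOCK-BMAL1. DBP, TEF, and HLF are the PAR bZIP factors, which bind D-boxes and carry the rhythm to output genes, Per genes among them. GSK3 kinases phosphorylate several clock proteins, and this is the link between the clock and the target of SB216763. That phosphorylation acts on proteins, which RNA-Seq does not measure.

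The promoter stretches with exact matches to clock motifs are shown first, because they show where clock factors could bind these genes. The sequences are from RefSeq on GRCm38.p6, where 9 of the 10 genes had an entry, with 13 windows of 300 bases that reach from 250 bases before to 50 bases after an annotated start. Per2 had no entry. Searched on both strands were the E-box CACGTG, the noncanonical E-box CACGTT, the D-box TTATGTAA or TTACGTAA, the ROR element core TAGGTCA, and the cAMP response element TGACGTCA. The E-box and the noncanonical E-box differ in their last letter, so no match counted under both. Capitals mark the matches, with AACGTG being CACGTT read on the other strand. Each stretch is written 5′ to 3′ on the strand of its gene, before a start annotated by RefSeq and in no GENCODE exon. For Per1 and Tef that start is an alternative one, and their stretches lie inside the span of the gene given below.
Ciart, chr3:95882253-95882364, minus strand: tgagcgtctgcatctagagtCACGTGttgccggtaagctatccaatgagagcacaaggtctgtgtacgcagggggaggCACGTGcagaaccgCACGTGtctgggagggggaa
Cry1, chr10:85185089-85185153, minus strand: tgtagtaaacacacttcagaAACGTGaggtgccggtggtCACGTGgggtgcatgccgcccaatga
Per1, chr11:69098763-69098808, plus strand: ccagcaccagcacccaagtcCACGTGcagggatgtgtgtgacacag
Tef, chr15:81811256-81811301, plus strand: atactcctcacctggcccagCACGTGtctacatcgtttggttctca
Cry2, chr2:92434210-92434255, minus strand: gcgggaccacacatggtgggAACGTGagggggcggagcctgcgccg
Per3, chr4:151044796-151044890, minus strand: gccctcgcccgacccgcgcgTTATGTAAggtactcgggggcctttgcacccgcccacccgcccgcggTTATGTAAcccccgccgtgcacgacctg

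Ciart held 3 E-boxes, which began 116, 58, and 44 bases before its start. Per1, Cry1, and Tef also held E-boxes, in 1 window each of Per1 and Cry1 and in both windows of Tef, of which the stretch outside exons is shown. For Per1 and Tef, no window reached before the first base of the gene in GENCODE, so the sequence there was not searched. In all, 5 of the 13 windows held an E-box, and 7.15% of all 32851 windows of that length did. Noncanonical E-boxes were found in Cry1 and Cry2, and in 4.68% of all windows. The 2 D-boxes of Per3 began 205 and 158 bases before its start, and 1.06% of all windows held that motif. The Hlf window held the cAMP response element, which 1.79% of all windows held. The ROR element core was in none of the 13 windows and in 2.61% of all windows. The windows of Clock and Dbp held no match. A match describes letters only and does not show that a factor bound there in these cells.

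The authors counted reads per gene with STAR, and totals ran from 30990107 to 68946333 counts per library. In these libraries, 3 counts came to 0.0435 to 0.0968 CPM (counts scaled to the library total), taken as the smallest level the depth can show, for counting error only. Levels below are CPM after TMM normalization, as mean ± SD. Differences are log2 fold changes ± SE from edgeR's quasi-likelihood test with all 9 libraries in 1 fit, and a gene passed at a Benjamini-Hochberg FDR under 0.01 over the 15531 genes tested. A gene passed the fold threshold when its log2 fold change was also at least 2 in size. Whether the libraries of a group came from separate cultures or animals is not stated, so the p-values measure only the spread between these samples. Summed CPM of 5 endothelial markers was 6000 to 6149 in ECs and at most 2.71 in the osteoblast libraries, SB216763-treated ones included. Summed CPM of 5 osteoblast markers was 20085 to 28683 in controls, 2824 to 2973 after SB216763, and 28.9 to 38.3 in ECs. Most of this sum was Col1a1, which averaged 24511, 2732, and 20.6 CPM in these groups. Sp7 (298, 26.0, and 0.273 CPM) and Ibsp (152, 11.4, and 0.0613 CPM) had the same order. Runx2 fell less with treatment (158, 116, and 10.7 CPM), and Alpl was lowest after SB216763 (34.0, 0.468, and 1.71 CPM). Replicates were less alike among controls than among ECs, with a chi-square per gene of 27.4 to 109.6 between controls, 3.20 to 27.3 between treated libraries, and 2.93 to 4.73 between ECs. This chi-square was taken on raw counts and rises with depth. The SD of log2 CPM against the other libraries of a group differed less. For genes of at least 10 CPM, it was 0.140 to 0.175 in controls, 0.124 to 0.158 after SB216763, and 0.115 to 0.137 in ECs. Against the other libraries of its group, control replicate 2 had a median log2 difference of -0.095 for the longest genes and 0.089 for the shortest (the upper and lower quartiles of exon length), and SB216763 replicates 2 and 3 had 0.091 and -0.096 for the shortest. Bulk counts cannot tell fewer cells of a type from less RNA per cell.

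After SB216763, 7 of the 10 clock genes rose, Ciart fell, and Cry1 did not pass. Hlf was too low to be tested. Among all genes tested, 32.9% rose and 32.0% fell. None of the 10 passed the fold threshold, which 1499 of the 15531 genes tested passed. The largest increases were those of Dbp, Per2, and Tef. The libraries of the 2 groups did not overlap for any tested clock gene except Cry1. How many of all genes tested showed no overlap was not counted, and 10083 of the 15531 passed the FDR in this comparison. The lack of overlap therefore cannot be read as particular to the clock genes. The median log2 fold change of the 9 tested clock genes was 0.48, beside 0.014 over all genes tested. Under scaling by library size alone, the median over all genes moved by 0.20 in this comparison and by 0.13 between ECs and controls, so small changes are to be read against these shifts.

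**Figure D1:**
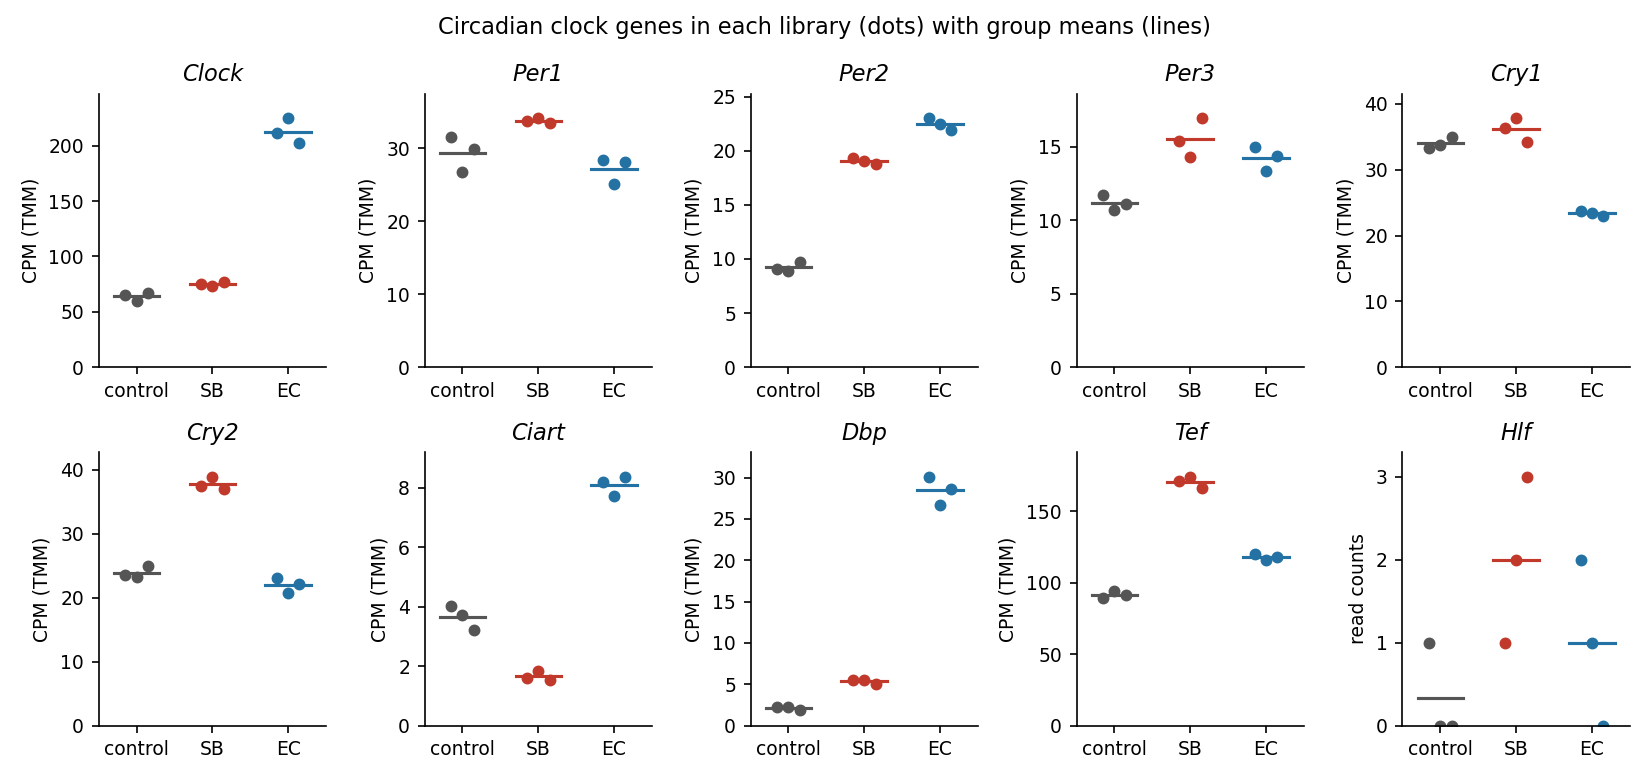
Level of each clock gene in every library, with dots for libraries and lines for the means of control osteoblasts, SB216763-treated osteoblasts (SB), and ECs, n = 3 each. The vertical axes give TMM-normalized CPM and start at 0, except for Hlf, which is given in raw read counts of 0 to 3. Ciart is lowest and Cry2 and Tef are highest in the SB group, while Clock, Ciart, and Dbp are highest in ECs.

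Clock encodes the activator that, with BMAL1, drives the loop. The gene (ENSMUSG00000029238) lies on the minus strand of chr5:76209868-76304792 in GENCODE M21 on GRCm38. Its level was 64.8, 60.2, and 66.9 CPM in the controls, 75.0, 72.9, and 77.0 CPM after SB216763, and 211, 225, and 202 CPM in ECs. All treated libraries lay above all controls, and the EC libraries lay far above both. The increase after SB216763 was small, at 0.23 ± 0.05 (FDR = 0.000986). ECs exceeded controls by 1.74 ± 0.05 (FDR = 2.74e-14), a 3.33-fold difference, and treated osteoblasts stayed below ECs (-1.50 ± 0.05, FDR = 1.52e-13).

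The partners of CLOCK did not follow the same order. Arntl, which encodes BMAL1, averaged 25.2 ± 0.639 CPM in controls, 29.6 ± 1.44 CPM after SB216763, and 14.1 ± 0.766 CPM in ECs. It thus rose by 0.23 ± 0.06 with treatment (FDR = 0.00123) and was lower in ECs than in controls by a log2 fold change of -0.84 ± 0.06 (FDR = 1.51e-09). ECs therefore had the highest Clock and the lowest Arntl of the 3 groups. Without SB216763 replicate 2, the FDR of Arntl after treatment was 0.0102. Arntl2, a paralog of Arntl, fell with treatment by a log2 fold change of -0.31 ± 0.09 (FDR = 0.00823). Npas2, a paralog of Clock, did not pass the expression filter and averaged at most 0.166 CPM.

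The Per genes encode repressors of CLOCK-BMAL1, and Per1 and Per2 are also known to respond to signals from outside the cell. Per2 (ENSMUSG00000055866) lies on the minus strand of chr1:91415982-91459324. Its level was 9.06, 8.92, and 9.69 CPM in controls, 19.3, 19.0, and 18.8 CPM after SB216763, and 23.0, 22.5, and 21.9 CPM in ECs. The 3 groups did not overlap, and the treated libraries lay closer to the ECs than to the controls. Per2 rose 2.08-fold after SB216763, by 1.05 ± 0.06 on the log2 scale (FDR = 1.13e-10), and was 2.45-fold higher in ECs than in controls (1.29 ± 0.06, FDR = 3.52e-12). The remaining difference between treated osteoblasts and ECs was -0.24 ± 0.05 (FDR = 0.000688), which did not pass under scaling by library size alone or without the expression filter.

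Per1 (ENSMUSG00000020893), on the plus strand of chr11:69095217-69109960, differed little. It measured 31.5, 26.7, and 29.9 CPM in controls, 33.7, 34.1, and 33.5 CPM after SB216763, and 28.4, 25.1, and 28.1 CPM in ECs. The treated libraries lay above all others, while controls and ECs overlapped. The difference after SB216763 was 0.20 ± 0.06 (FDR = 0.00962), just inside the threshold, and it did not pass in 9 of 18 alternatives. Among these were a fit without control replicate 2 (0.12, FDR = 0.0631), fits without control replicate 3, without any 1 of the SB216763 replicates, or without EC replicate 1 or 3, a fit of only the 2 groups, and DESeq2 (0.20, FDR = 0.0121). Over all 18 alternatives, its FDR ran from 3.10e-05 to 0.0631. The difference between ECs and controls did not pass (-0.11 ± 0.06, FDR = 0.134), turned to 0.020 under scaling by library size alone, and passed without control replicate 2 (-0.18, FDR = 0.00787). Its FDR ran from 0.00787 to 0.779 over the alternatives. Treated osteoblasts exceeded ECs by 0.31 ± 0.06 (FDR = 0.000347).

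Per3 (ENSMUSG00000028957), on the minus strand of chr4:151003652-151044665, carries the pair of D-boxes shown above. It measured 11.7, 10.7, and 11.1 CPM in controls, 15.4, 14.3, and 16.9 CPM after SB216763, and 14.9, 13.3, and 14.4 CPM in ECs. Controls were lowest, and the other two groups overlapped. Per3 rose by 0.48 ± 0.07 after SB216763 (FDR = 2.50e-05) and was higher in ECs than in controls by 0.35 ± 0.07 (FDR = 0.000375). Treated osteoblasts and ECs differed by 0.12 ± 0.07, with a 95% interval from -0.019 to 0.27 (FDR = 0.124).

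The Cry genes encode the partners of the PER proteins in repression. Cry2 (ENSMUSG00000068742), on the minus strand of chr2:92403646-92434043, measured 23.5, 23.2, and 24.9 CPM in controls, 37.5, 38.9, and 37.0 CPM after SB216763, and 23.1, 20.6, and 22.2 CPM in ECs. The treated libraries stood above all others, and the EC libraries lay just below the controls without overlap. Cry2 rose 1.59-fold with treatment (0.67 ± 0.05, FDR = 1.05e-08) and was also higher in treated osteoblasts than in ECs (0.78 ± 0.05, FDR = 1.05e-09). The difference between ECs and controls was -0.11 ± 0.05 (FDR = 0.0669) and turned to 0.014 under scaling by library size alone.

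Cry1 (ENSMUSG00000020038), on the minus strand of chr10:85131700-85185064, was low in ECs, while Cry2 was high after SB216763. Its level was 33.3, 33.7, and 35.0 CPM in controls, 36.4, 37.8, and 34.2 CPM after SB216763, and 23.7, 23.5, and 22.9 CPM in ECs. Controls and treated osteoblasts overlapped, and all EC libraries lay below them. The difference after SB216763 was 0.09 ± 0.05 (95% interval -0.0046 to 0.19, FDR = 0.106) and passed only under scaling by library size alone (0.29), among the alternatives run. Cry1 was lower in ECs than in controls by a log2 fold change of -0.54 ± 0.05 (FDR = 4.92e-08), and treated osteoblasts exceeded ECs by 0.63 ± 0.05 (FDR = 7.02e-09).

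Ciart (ENSMUSG00000038550) lies on the minus strand of chr3:95878503-95882251, next to the stretch with 3 E-boxes. It was the sole clock gene of the 10 to fall after SB216763. Its level was 4.03, 3.71, and 3.23 CPM in controls, 1.61, 1.85, and 1.53 CPM after SB216763, and 8.20, 7.74, and 8.36 CPM in ECs. The 3 groups were fully apart, with treated osteoblasts lowest and ECs highest. These levels rest on 93 to 256 counts per control library, 56 to 71 counts per treated library, and 254 to 361 counts per EC library. The log2 fold change after SB216763 was -1.16 ± 0.12 (FDR = 3.53e-07). ECs exceeded controls by 1.12 ± 0.09 (FDR = 1.63e-08), so the treated osteoblasts lay on the other side of the controls from the ECs. Treated osteoblasts fell short of ECs by a log2 fold change of -2.28 ± 0.11 (FDR = 1.48e-11), past the fold threshold.

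Dbp (ENSMUSG00000059824), the PAR bZIP gene best known for its strong daily rhythm, lies on the plus strand of chr7:45705088-45710203. It measured 2.28, 2.31, and 1.84 CPM in controls, 5.53, 5.47, and 5.07 CPM after SB216763, and 30.1, 26.7, and 28.6 CPM in ECs. The 3 groups were fully apart, and the treated libraries remained nearer to the controls than to the ECs. Dbp rose 2.44-fold with treatment (1.29 ± 0.10, FDR = 1.02e-08) and was 13.0-fold higher in ECs than in controls (3.70 ± 0.08, FDR = 6.07e-16). Treated osteoblasts differed from ECs by -2.41 ± 0.08 (FDR = 4.13e-14). Of the exon bases of Dbp, 539 of 2993 are shared with Sphk2 on the opposite strand, and the strand setting of the counting is not given in the sources used here, so reads there cannot be told apart. Sphk2 averaged 22.5 ± 0.478 CPM in controls, 26.2 ± 1.11 CPM after SB216763, and 38.7 ± 2.81 CPM in ECs. Its log2 fold changes were 0.22 after treatment and 0.78 between ECs and controls, and their part in those of Dbp was not tested.

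Tef (ENSMUSG00000022389), the second PAR bZIP gene, lies on the plus strand of chr15:81802421-81826863. Its level was 89.1, 94.2, and 91.4 CPM in controls, 171, 174, and 167 CPM after SB216763, and 120, 116, and 118 CPM in ECs. The groups did not overlap, and the treated osteoblasts were highest. Tef rose 1.86-fold with treatment (0.90 ± 0.04, FDR = 1.63e-11) and was higher in ECs than in controls by 0.36 ± 0.04 (FDR = 7.52e-07), so that treated osteoblasts exceeded ECs (0.53 ± 0.04, FDR = 6.06e-09).

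Hlf (ENSMUSG00000003949), the third PAR bZIP gene, on the minus strand of chr11:90336536-90390895, was at or below the level the depth can show in each library. Its counts were 1, 0, and 0 in controls, 1, 2, and 3 after SB216763, and 2, 1, and 0 in ECs. No fold change is given for it.

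**Figure D2:**
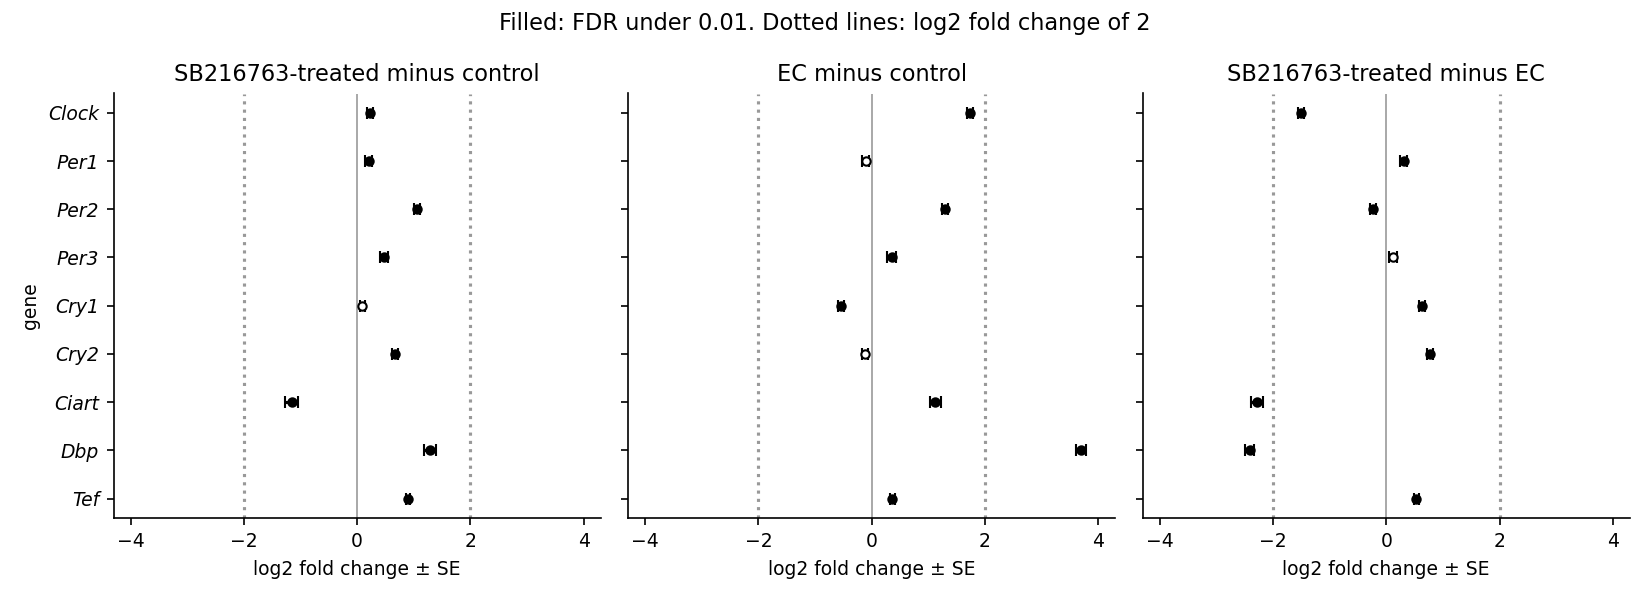
Log2 fold change (horizontal axis, bars ± SE) of the 9 tested clock genes in the 3 comparisons, with filled dots for an FDR under 0.01 and dotted lines at a log2 fold change of 2. No gene crosses the dotted lines after SB216763, Dbp crosses them between ECs and controls, and Ciart and Dbp cross them between treated osteoblasts and ECs.

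Between ECs and controls, 6 of the 10 clock genes were higher in ECs (Clock, Per2, Per3, Ciart, Dbp, and Tef) and Cry1 was lower. Of all genes tested, 39.0% were higher and 37.9% lower in ECs. Dbp alone passed the fold threshold, which 13.5% of all genes passed on the higher side. Between treated osteoblasts and ECs, 4 clock genes (Per1, Cry1, Cry2, and Tef) were higher in the treated cells and 4 (Clock, Per2, Ciart, and Dbp) were lower, beside 38.3% and 40.3% of all genes. Ciart and Dbp passed the fold threshold on the lower side, and 15.0% of all genes did. The 3 comparisons share their libraries and are not independent of each other. Markers of leukocytes did not move together. Cd68 was at 46.6 CPM in ECs, 0.532 CPM in controls, and 1.63 CPM after SB216763, Lyz2 at 10.4, 26.0, and 7.04 CPM, and Ptprc, which defines leukocytes, at 0.0915, 0.0745, and 0.154 CPM. The summed level of the 5 leukocyte markers was 56.2 to 58.4 CPM in ECs, 25.9 to 27.7 CPM in controls, and 8.28 to 9.88 CPM in treated osteoblasts, with Cd3e at or under 3 counts in all. The part of such cells in the levels of the clock genes was not tested.

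Levels of different genes were compared per kb of merged exon. In controls, Tef was highest at 11.6 CPM per kb, followed by Cry1 at 10.2, Per1 at 5.21, Clock at 4.66, and Cry2 at 3.78 CPM per kb. Ciart, Per2, Per3, and Dbp followed at 1.62, 1.57, 1.16, and 0.717 CPM per kb. Per1 and Clock, and Ciart and Per2, overlapped between libraries, and the other neighbors in this order did not.

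After SB216763, Tef led further, at 21.7 CPM per kb, and made up 37.8% ± 0.117 (SD, n = 3) of the summed level of the 10 genes, against 28.7% ± 1.13 in controls. Cry1 followed at 10.8 CPM per kb, then Per1 at 6.00, Cry2 at 5.98, and Clock at 5.46 CPM per kb. Per2 was at 3.25, Dbp at 1.79, Per3 at 1.62, and Ciart at 0.734 CPM per kb. Ciart thereby moved below Dbp and Per3. Per1 and Cry2, and Dbp and Per3, overlapped between libraries.

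In ECs, Clock at 15.5 CPM per kb and Tef at 15.0 CPM per kb overlapped at the top. Dbp came next at 9.51 CPM per kb, with 14.8% ± 0.644 of the summed level, against 1.77% ± 0.238 in controls and 3.12% ± 0.103 after SB216763. Cry1 was at 7.00, Per1 at 4.83, Per2 at 3.84, Ciart at 3.58, Cry2 at 3.48, and Per3 at 1.48 CPM per kb, and of these neighbors Ciart and Cry2 overlapped. Hlf was last in all groups.

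**Figure D3:**
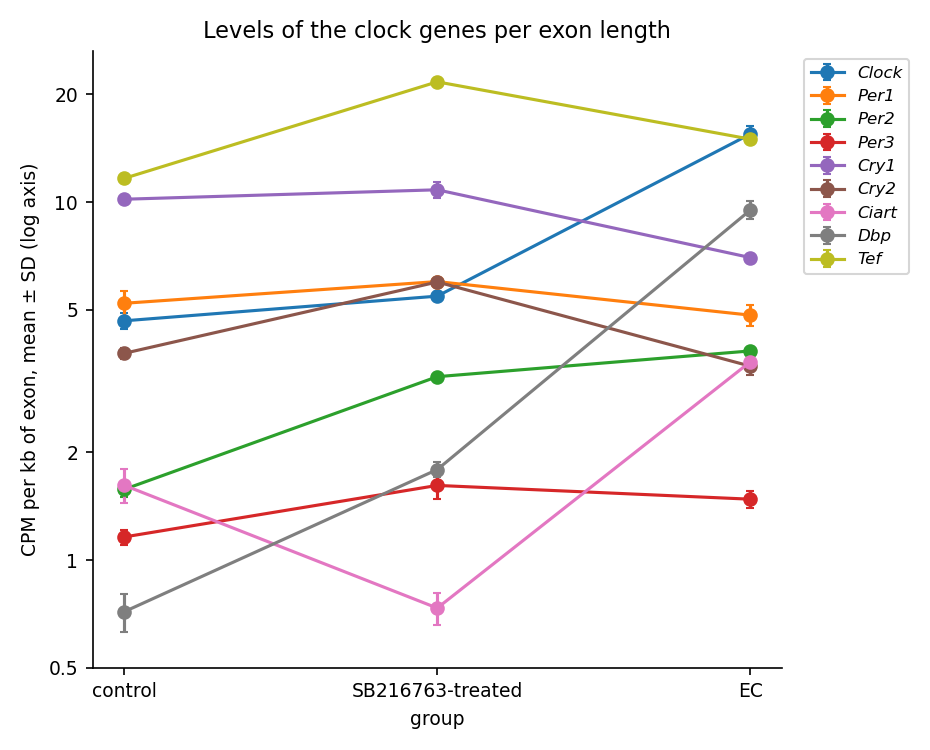
Mean level of the 9 detected clock genes per kb of merged exon (log axis, CPM per kb, bars ± SD, n = 3 libraries) in control osteoblasts, SB216763-treated osteoblasts, and ECs. Lines join the same gene across the groups and are no time course. Dbp goes from 0.717 in controls to 9.51 in ECs, and Ciart is lowest in the treated group at 0.734.

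Ratios of related genes within a library do not depend on how libraries are scaled. The Per1 to Per2 log2 ratio of counts averaged 1.67 ± 0.115 in controls, 0.83 ± 0.0230 after SB216763, and 0.27 ± 0.106 in ECs. Control osteoblasts thus held 3.18 Per1 counts per Per2 count, treated osteoblasts 1.77, and ECs 1.21. The Per3 to Per2 log2 ratio went from 0.27 ± 0.0895 in controls to -0.30 ± 0.134 after SB216763 and -0.66 ± 0.0796 in ECs. In both ratios the treated osteoblasts lay between controls and ECs, which follows the level of Per2.

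The Cry1 to Cry2 log2 ratio was 0.51 ± 0.0223 in controls, -0.07 ± 0.0417 after SB216763, and 0.09 ± 0.0837 in ECs. Both other groups lay below the controls, after SB216763 with higher Cry2 and in ECs with lower Cry1. The Dbp to Tef log2 ratio was -5.42 ± 0.181 in controls, -4.99 ± 0.0450 after SB216763, and -2.05 ± 0.0597 in ECs. Ratios of other gene pairs were not tested. Libraries of different groups did not overlap in any of the 12 tests of 4 ratios, which cannot be read as particular to these pairs. Each had p = 0.1 (2-sided exact permutation test, n = 3 against 3), the smallest p this design allows, and 0.1 after Benjamini-Hochberg adjustment, so none could reach 0.05. The ratio of Hlf to Tef was not computed, given the counts of Hlf.

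**Figure D4:**
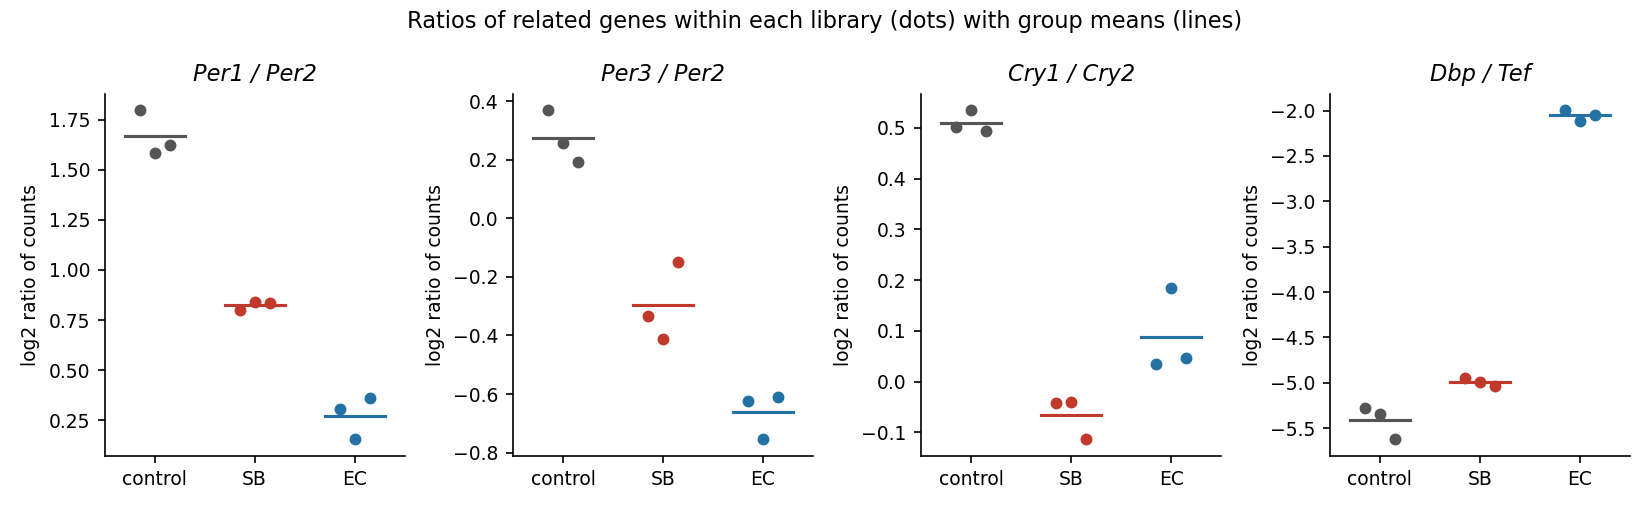
Log2 ratio of counts (vertical axis) of Per1 to Per2, Per3 to Per2, Cry1 to Cry2, and Dbp to Tef in each library (dots) with group means (lines) for controls, SB216763-treated osteoblasts (SB), and ECs. The groups do not overlap in any panel, and the vertical axes differ and do not start at 0.

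The other genes of the clock network were counted by list. Of all genes tested, 32.9% rose and 32.0% fell after SB216763, and the counts of each list are to be read beside these shares. In the nuclear receptor loop, which sets Arntl transcription, 2 of 4 tested genes rose after SB216763 and none fell. Both were REV-ERB repressors. Nr1d1 went from 15.4 to 24.9 CPM (0.69 ± 0.05, FDR = 5.72e-09), with 49.0 CPM in ECs, and Nr1d2 from 59.2 to 98.3 CPM (0.73 ± 0.05, FDR = 5.48e-09), with 70.3 CPM in ECs. Nr1d1 shares 263 of its 3077 exon bases with Thra on the opposite strand, where reads cannot be told apart. Rora, which encodes an activator of Arntl, had 53.5 CPM in controls, 58.8 CPM after SB216763 (FDR = 0.0347), and 5.29 CPM in ECs, a log2 fold change of -3.34 ± 0.07 between ECs and controls (FDR = 2.08e-16). Rorb averaged 3.63 CPM in ECs and at most 0.0178 CPM in osteoblasts.

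All 3 of the other repressors of E-box and D-box passed after SB216763. Bhlhe41, which encodes DEC2, an E-box repressor, went from 7.93 ± 0.440 to 40.4 ± 1.20 CPM and passed the fold threshold (2.34 ± 0.06, FDR = 4.86e-15), with 44.7 ± 1.86 CPM in ECs. Its paralog Bhlhe40 went from 65.1 to 110 CPM (0.75 ± 0.05, FDR = 4.00e-10) but was lower in ECs, at 48.8 CPM. Of the exon bases of Bhlhe41, 1280 of 6720 are shared with Gm43909 on the opposite strand. As for Dbp, reads there cannot be told apart. Nfil3, whose product E4BP4 competes with the PAR bZIP factors for D-boxes, fell from 45.4 to 14.7 CPM (-1.62 ± 0.06, FDR = 4.59e-13) and had 7.43 CPM in ECs. The D-box activators Dbp and Tef thus rose and this D-box repressor fell in the same libraries.

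Among 15 kinases, ubiquitin ligases, and deubiquitinases of clock proteins, 4 rose, 3 fell, and 8 did not pass after SB216763, with a median log2 fold change of 0.10. The targets of the inhibitor did not pass in the fit to all 9 libraries. Gsk3a averaged 57.6 CPM in controls and 59.0 CPM after SB216763 (FDR = 0.613), and Gsk3b 189 and 170 CPM (FDR = 0.0182), and the sign of each difference turned in at least 1 alternative. Gsk3a passed, as higher, under scaling by library size alone (0.24), and Gsk3b passed, as lower, with DESeq2 (-0.16), without control replicate 2 (-0.22), and at an FDR under 0.05. Of the exon bases of Gsk3a, 820 of 2900 are shared with 9130221H12Rik on the opposite strand. Csnk1e, a casein kinase that phosphorylates PER proteins, fell by a log2 fold change of -0.52 ± 0.04 (FDR = 5.29e-09), and its paralog Csnk1d did not pass (0.10 ± 0.04, FDR = 0.0342). Csnk2a2 and Csnk2b, subunits of casein kinase 2, fell by -0.23 and -0.24, and neither passed under scaling by library size alone (-0.024 and -0.034). Fbxl21, which encodes an F-box protein of a ubiquitin ligase, rose by 1.47 ± 0.18 (FDR = 2.12e-06), from 0.664 to 1.85 CPM. Btrc and Usp7 rose by 0.41 and 0.23.

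Of 11 cofactors and chromatin factors, 3 rose, 4 fell, and 4 did not pass. Timeless, which acts in replication fork protection and binds clock proteins, passed the fold threshold, from 35.8 CPM in controls to 5.86 CPM after SB216763 (-2.61 ± 0.07, FDR = 3.23e-14), with 49.5 CPM in ECs. Sfpq, Nono, and Wdr5, whose products are found in PER complexes, fell by -1.03, -0.55, and -0.44. Kmt2a, Ep300, and Sirt1, which encode enzymes that modify histones or clock proteins, rose by 0.85 ± 0.16, 0.67 ± 0.10, and 0.29 ± 0.06. The controls were widely spread for Kmt2a (34.0 to 63.3 CPM) and Ep300 (50.2 to 73.5 CPM).

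Most of the output genes that cycle in many tissues did not rise with Dbp and Tef. Of 10, 7 fell, 1 rose, and 2 did not pass after SB216763, beside 32.0% of all genes tested that fell. Their median log2 fold change was -0.56, beside 0.014 over all genes tested. Wee1, a kinase that holds back mitosis, fell from 55.9 to 14.9 CPM (-1.90 ± 0.06, FDR = 3.75e-14), and Noct, a deadenylase-related gene, from 13.9 to 4.22 CPM (-1.72 ± 0.08, FDR = 1.36e-11). In ECs these genes had 57.4 and 43.4 CPM. Tsc22d3, Fkbp5, and Pik3ip1 fell by -1.18, -0.97, and -0.82. Tsc22d3 and Fkbp5 are also targets of the glucocorticoid receptor, whose own gene Nr3c1 rose by 0.44 ± 0.04 (FDR = 1.63e-07). The part of the receptor in their levels was not tested. Nampt and Tspan4 fell by -0.30 and -0.22, which did not pass under scaling by library size alone, and Cdkn1a rose by 0.26.

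The immediate early and cAMP genes, several of which set Per transcription, split in both directions, with 6 of 13 higher, 2 lower, and 5 not passing. Sik1 rose from 10.9 to 28.7 CPM (1.40 ± 0.05, FDR = 8.61e-13) and Egr1 from 23.9 to 50.5 CPM (1.08 ± 0.05, FDR = 5.93e-12). The CREB coactivator genes Crtc2 and Crtc1 rose by 0.80 and 0.60, and Ier2 by 0.45. Junb fell from 59.6 to 28.9 CPM (-1.05 ± 0.05, FDR = 6.45e-11), and Fos from 2.25 to 1.19 CPM (-0.95 ± 0.14, FDR = 1.80e-05). Between ECs and controls, 9 of the 13 were higher in ECs and 3 lower, beside 39.0% and 37.9% of all genes tested. Their median log2 fold change was 1.22, beside 0.0074 over all genes.

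**Figure D5:**
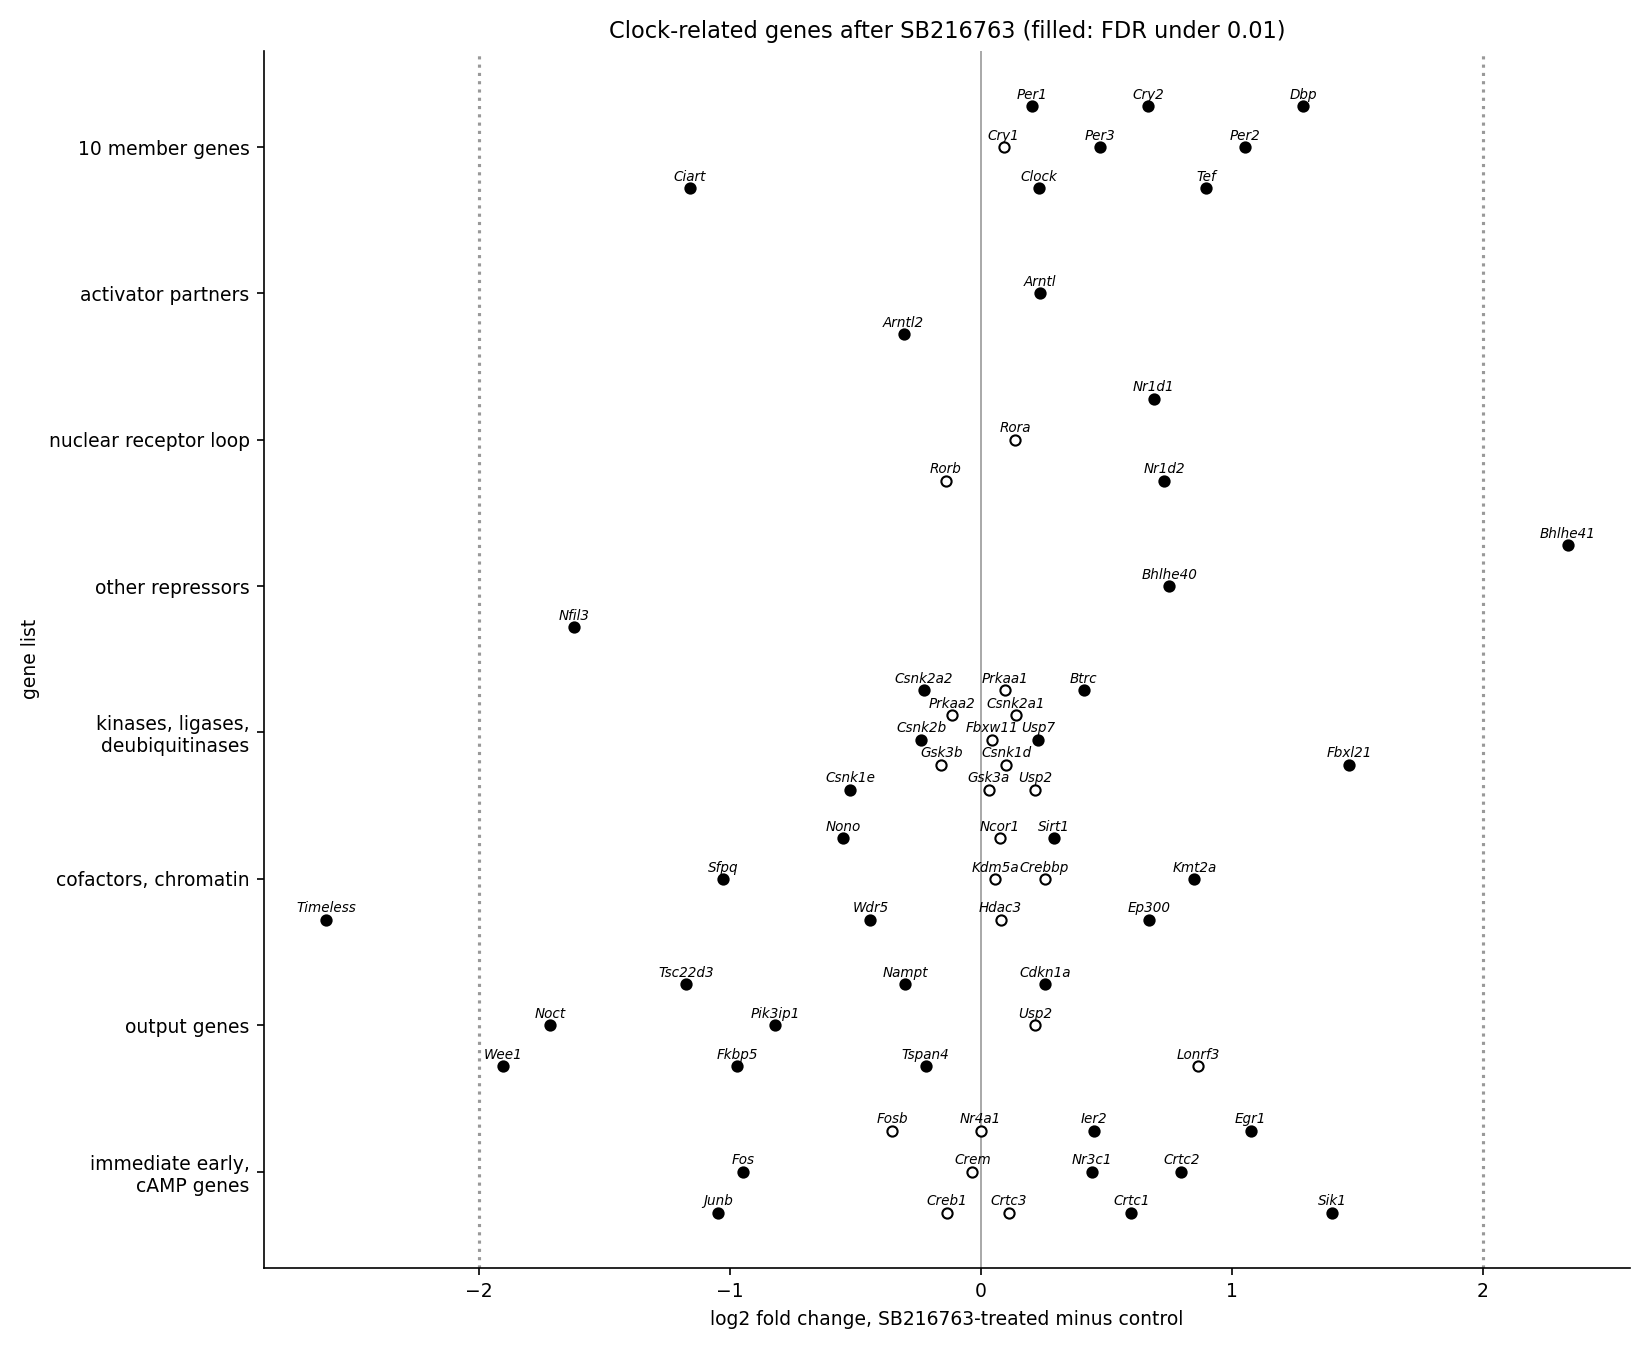
Log2 fold change after SB216763 (horizontal axis, treated minus control) of tested genes of the clock lists (rows), with filled dots for an FDR under 0.01 and dotted lines at a log2 fold change of 2. Bhlhe41 and Timeless lie outside the dotted lines, and 7 of the 10 output genes fell, beside 32.0% of all genes tested.

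For each tested clock gene, the gene with the most similar pattern was found by Pearson's r of log2 CPM over the 9 libraries. The search covered 10260 genes that averaged at least 10 CPM in at least 1 group. These values describe 3 groups of 3 libraries that share normalization, so that any gene with the same order of groups scores high. The best match was Itsn2 for Clock (r = 0.999), Dlg4 for Per1 (r = 0.957), Cd200 for Per2 (r = 0.999), and Abcc10 for Per3 (r = 0.975). It was Zcchc17 for Cry1 (r = 0.995), Uck1 for Cry2 (r = 0.996), Slc39a11 for Ciart (r = 0.997), Ociad2 for Dbp (r = 0.999), and Cyth3 for Tef (r = 0.999). The groups differed far more for some of these genes than for their match among the clock genes. Cd200 averaged 0.146, 46.9, and 154 CPM in controls, treated osteoblasts, and ECs, in the order of Per2 but over a wider range.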

How the data were processed

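RNA-Seq libraries of control MC3T3-E1 osteoblasts, SB216763-treated osteoblasts, and mouse pulmonary ECs were analyzed, n = 3 each. The values deposited by the authors are unnormalized whole-number counts for 50686 genes, made with STAR (2.5.3a, on GRCm38, in the submitters' processing notes). Their annotation and strand setting are not given in the sources used here. Some other genes named above also share exon bases with a gene on the opposite strand, such as Junb with Prdx2 (173 of 2301). Symbols were found for 50376 identifiers and GENCODE M21 coordinates for 50462. The clock genes and all lists were chosen with earlier results of these data known, and values are given for list genes that passed the fold threshold, or passed the FDR with at least 10 CPM, and for a few others that a count or comparison turned on, chosen after their values were seen. Some list genes are counted but not reported here by name. The most similar gene of each clock gene is the first of the 2 that the rule named.

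Counts were filtered with filterByExpr, normalized by TMM, and tested by the quasi-likelihood test of edgeR 4.0.16 (R 4.3.3), with FDR under 0.01 and a fold threshold of 2 on the log2 scale. Fold changes used a prior count of 0.125 and ratios 0.5 added to each count. The tests were checked on simulated data. Other settings tried were DESeq2 1.42.0, limma 3.58.1 with voom weights, library size alone, upper quartile, no filter, a filter of 10 counts, 2 groups only, an FDR under 0.05, a replicate block, 5 added in the ratios, and leaving out each library. No replicates were as alike as sampling noise, with a chi-square per gene of 2.93 or more.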

Additional observations from a re-analysis of the deposited data

How the results depend on the processing

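The counts of clock genes that rose, fell, or passed the fold threshold, the ratios, and the median levels kept their direction and side of the threshold, or moved by less than 1.5 times or 1 SD, in 255 alternative values and not in 3. The latter were 2 clock genes lower in ECs than in controls without control replicate 2 (Per1 joining Cry1), and, under scaling by library size alone, a median level of the clock genes of 16.2 CPM in controls and 28.2 CPM after SB216763. That scaling also turned Per1 and Cry2 between ECs and controls to 0.020 and 0.014, and Gsk3b after SB216763 to 0.046. Gsk3a after SB216763 turned to -0.012 without control replicate 3 and to -0.0077 without SB216763 replicate 1, and ran up to 0.087 over the libraries left out.

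Leaving out 1 library at a time gave 6 to 7 clock genes higher after SB216763, and 1 to 2 lower in ECs than in controls. Same-numbered libraries did not deviate together in all pairs (correlations from -0.04 to 0.12), so the numbers were not used as pairs. The replicate block gave 7 clock genes higher and 1 lower after SB216763, 6 and 1 between ECs and controls, and 4 and 4 between treated osteoblasts and ECs, as without it. Of the libraries of controls, 2 of 3 correlated best with their own number among treated osteoblasts and 1 of 3 among ECs, and of treated libraries 0 of 3 among ECs. Depth limits Hlf, which had at most 3 counts per library.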
